A study of Caenorhabditis elegans with 53 samples.

Results

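The microRNAs carried by ALG-1 were compared with those carried by ALG-2, the main microRNA Argonautes of the nematode Caenorhabditis elegans. The members are the features classed as microRNA in the deposited tables of both Argonautes, 439 of the 25900 rows that the tables share. The comparison rests on 2 ALG-1 and 2 ALG-2 co-immunoprecipitation (co-IP) libraries of the 53 samples in the series. MicroRNA rows above 0 in both libraries numbered 291 with ALG-1 and 289 with ALG-2, and 99 of the 439 were at 0 in all 4.

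The ALG-1 animals carried alg-1(ap423[3xflag::gfp::alg-1]) and the ALG-2 animals alg-2(tor139[GFP::3xFLAG::alg-2b]). Both were gravid hermaphrodite adults grown at 20C on E. coli carrying L4440, the empty feeding vector, and each strain also gave 2 input libraries of total small RNA. The same 2 strains fed rde-1 RNAi bacteria gave another 2 co-IP and 2 input libraries each. Wild type mixed-stage embryos (2 libraries) and wild type adults (3) served as a further readout. Another set labelled GFP::alg-1, from nrfl-1 RNAi food, gave 3 co-IP and 3 input libraries. It has no ALG-2 libraries and lies outside the comparison. Each library is whole-animal RNA, so fewer cells of a type and less RNA per cell cannot be told apart. Argonaute, strain, tag position and table also cannot be told apart, because each Argonaute has 1 tagged strain and 1 separately scaled table. Nothing in the labels says that replicates came from separate cultures, so the p-values measure the spread between these samples, which may be technical.

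A microRNA is cut by Dicer from a hairpin precursor into a duplex, and one strand, the guide, is kept in an Argonaute while the other, the passenger, is discarded. The names end in 5p or 3p for the arm of the hairpin. The guide pairs with messenger RNAs mainly through its seed near the 5′ end, and microRNAs with one seed form a family. In worms, lin-4 and the let-7 family time larval development, the mir-35 family acts in embryos and the germline, and ALG-1 and ALG-2 overlap in function. Families were assigned here by name.

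Values are shares, in parts per 1000000 (ppm) of the summed microRNA RPM (reads per 1000000) of the same library, which removes the scaling of each table. The co-IPs were estimated at 16700000 to 25400000 reads and the inputs at 10800000 to 14700000, from the size of 1 read in the low piRNA values. MicroRNAs made up 99.7 to 99.9% of the RPM listed in the L4440 co-IPs, against 84.8 to 87.9% in the inputs.

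The 2 Argonautes shared most of their cargo, and the part that differed was large. Summing the smaller share of every microRNA, an ALG-1 and an ALG-2 co-IP overlapped by 69.0 to 72.7% over the 4 pairs of libraries. The ALG-1 replicates overlapped by 94.4% and the ALG-2 replicates by 91.6%. Inputs of the 2 strains overlapped by 89.8 to 91.9%. The co-IPs differed between Argonautes by more than their replicates or the inputs did.

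Of the 10 most abundant microRNAs of each co-IP, 5 were common to both. The leading ALG-1 microRNA was miR-58a-3p, with 158411 and 168070 ppm in ALG-1 co-IPs against 69352 and 65664 ppm in ALG-2 co-IPs. The leading ALG-2 microRNA was miR-80-3p of the same family, with 126834 and 144710 ppm in ALG-1 co-IPs against 126740 and 153610 ppm in ALG-2 co-IPs. miR-58a-3p was higher in both ALG-1 libraries, while the miR-80-3p libraries overlapped. The fitted log2 difference, ALG-1 minus ALG-2, was 1.27 ± 0.10 (SE) for miR-58a-3p (adjusted p = 8.54e-05). For miR-80-3p its 95% interval ran between -0.28 and 0.20.

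In the limma fit over all 5522 rows past a mean of 1 ppm, 77 of 236 tested microRNA rows passed an adjusted p of 0.05, where 1.67% of all rows did and 0.284% of the rows of other classes. The other 203 microRNA rows were too low to test. Of the 77, 46 were higher with ALG-1 and 31 higher with ALG-2, against 1.1% and 0.561% of all rows. The 2 and 2 libraries did not overlap in 186 of the 236 tested microRNAs, the 77 among them, nor in 31.3% of all rows. The median difference was 0.23 over the tested microRNAs and 0.03 over all tested rows. The 46 together held 46.7 and 45.8% of the microRNA share in the ALG-1 co-IPs against 21.8 and 21.4% in the ALG-2 co-IPs. The 31 held 12.2 and 10.7% in the ALG-1 co-IPs against 34.5 and 37.5% in the ALG-2 co-IPs.

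**Figure D1:**
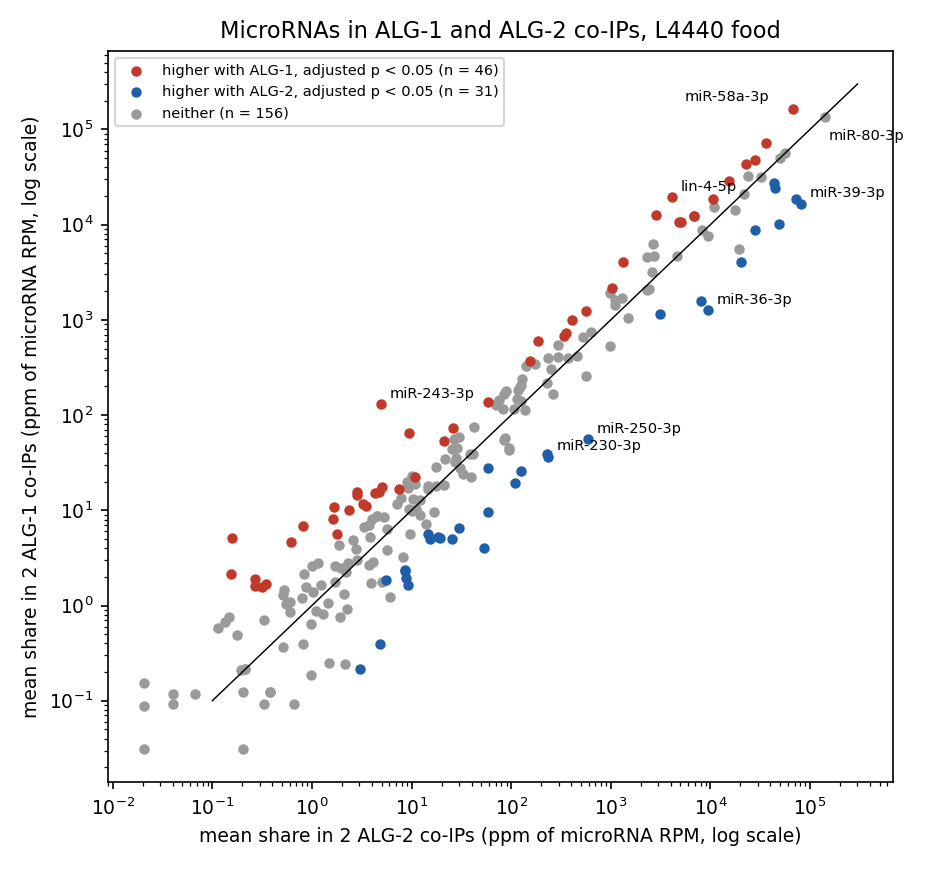
Mean share of each tested microRNA in the 2 ALG-1 co-IPs (vertical) against the 2 ALG-2 co-IPs (horizontal), both in ppm on log scales, with the line of equal shares. The 46 red points passed the threshold above the line and the 31 blue points below it; 3 tested microRNAs with a mean of 0 in one co-IP are not drawn.

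The mir-35 family held far more of the ALG-2 than of the ALG-1 cargo. Its 16 rows, both arms of miR-35 to miR-42, summed to 5.86 and 4.50% of microRNA RPM in the ALG-1 co-IPs, against 21.5 and 25.3% in the ALG-2 co-IPs. The inputs ran the other way, with 24.1 and 23.4% in the ALG-1 strain against 15.6 and 16.9% in the ALG-2 strain. The family was thus 4.51-fold higher in ALG-2 co-IPs but 1.46-fold higher in ALG-1 strain inputs, with no overlap of libraries in either.

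Of the 8 members' 3p arms, 6 passed the test, all higher with ALG-2. miR-39-3p, the most abundant of them with ALG-2, had 18818 and 14413 ppm in ALG-1 co-IPs against 78674 and 83536 ppm in ALG-2 co-IPs. Its difference was -2.30 ± 0.14 (adjusted p = 3.17e-05). miR-36-3p had the largest difference of the family, -2.91 ± 0.20. miR-35-3p differed by -1.95, miR-37-3p by -2.25, miR-40-3p by -2.36 and miR-41-3p by -2.50. The remaining members, miR-38-3p at -0.88 and miR-42-3p at -1.09, had adjusted p-values of 0.0678 and 0.062.

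The 5p arms of the family did not follow the 3p arms. miR-39-5p had 15.12 and 15.01 ppm in ALG-1 co-IPs against 4.05 and 4.53 ppm in ALG-2 co-IPs, and miR-40-5p had 9.34 and 10.9 ppm against 2.09 and 2.64 ppm. Both were higher with ALG-1, by 1.60 (adjusted p = 0.00298) and 1.73 (adjusted p = 0.00181). The other 6 passed in neither direction. miR-39 and miR-40 were the only 2 of the 83 hairpins tested on both arms whose arms passed the test in opposite directions.

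Both guide strands of the lin-4 family were higher with ALG-1. lin-4-5p, which represses the lin-14 and lin-28 messages in larvae, had 18161 and 20406 ppm in ALG-1 co-IPs against 4180 and 4155 ppm in ALG-2 co-IPs. Its relative miR-237-5p had 12773 and 12672 ppm in ALG-1 co-IPs against 2874 and 2816 ppm in ALG-2 co-IPs. Both were far above the ALG-2 libraries in each ALG-1 library, by 2.21 ± 0.14 and 2.16 ± 0.15. In the inputs lin-4-5p had 8938 and 9419 ppm in the ALG-1 strain against 7925 and 8154 ppm in the ALG-2 strain, a log2 difference of 0.19 (adjusted p = 0.41).

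In the let-7 family, 1 of 12 tested rows was higher with ALG-1 and 1 with ALG-2. miR-48-5p, a developmental timing microRNA, had 73371 and 70245 ppm in ALG-1 co-IPs against 33732 and 38709 ppm in ALG-2 co-IPs, a difference of 0.99 ± 0.12. The row higher with ALG-2 was miR-794-3p, at -1.45, the arm of its hairpin that was rarer in the inputs. Its abundant partner miR-794-5p, at 0.31, did not pass. let-7-5p itself had 7944 and 4733 ppm in ALG-1 co-IPs against 3500 and 1831 ppm in ALG-2 co-IPs. Its libraries did not overlap, but its difference of 1.28 ± 0.31 missed the threshold (adjusted p = 0.0947). miR-84-5p and miR-241-5p differed by 0.37 and -0.13, neither past the threshold.

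**Figure D2:**
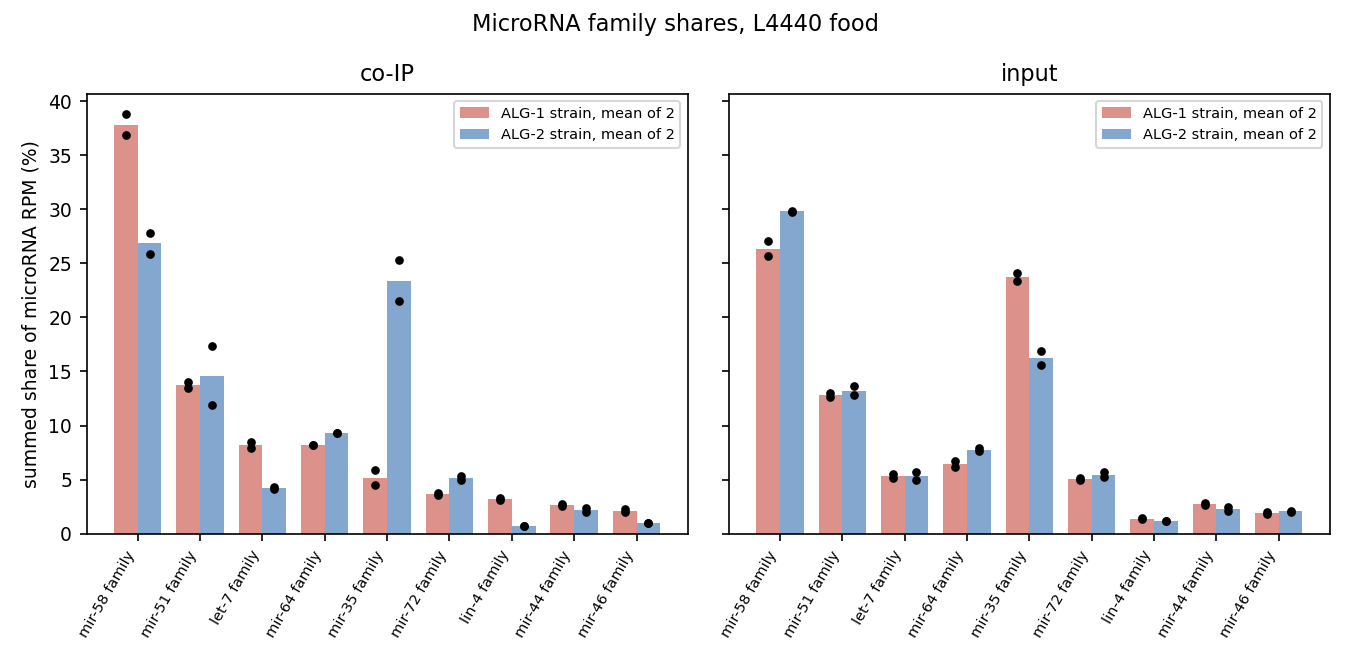
Summed share of microRNA RPM in percent for 9 families in co-IPs (left panel) and inputs (right panel); bars are means of 2 libraries and dots the libraries, ALG-1 left of ALG-2. The mir-35 family is 4.51-fold higher in the ALG-2 co-IPs and 1.46-fold higher in the ALG-1 strain inputs.

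Members of several families were split between the Argonautes. In the mir-44 family, miR-44-3p had 12723 and 11946 ppm in ALG-1 co-IPs against 5989 and 7660 ppm in ALG-2 co-IPs. miR-61-3p had 1741 and 1424 ppm in ALG-1 co-IPs against 7851 and 8321 ppm in ALG-2 co-IPs. One was higher with ALG-1 by 0.86 ± 0.17 (adjusted p = 0.035) and the other higher with ALG-2, with -2.36 ± 0.16 (adjusted p = 3.99e-05). miR-45-3p has the same values as miR-44-3p in every library and is no separate measurement. In all, 24 microRNA rows repeat the values of another row in the 8 L4440 libraries, and they stay in the counts and sums.

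The mir-2 family showed the same split on L4440. On rde-1 RNAi 0 of its rows passed higher with ALG-1 and 3 passed higher with ALG-2. miR-2-3p had 633 and 727 ppm in ALG-1 co-IPs against 333 and 340 ppm in ALG-2 co-IPs, a difference of 1.01 ± 0.20 (adjusted p = 0.0398) that lost its call in 9 of 18 alternative fits. miR-250-3p had 64.1 and 48.5 ppm in ALG-1 co-IPs against 652 and 540 ppm in ALG-2 co-IPs, a difference of -3.39 ± 0.22 (adjusted p = 3.78e-05). Both libraries of each Argonaute lay on one side for both microRNAs. The inputs held miR-250-3p at 1682 and 1818 ppm in the ALG-1 strain against 1754 and 1858 ppm in the ALG-2 strain, and these overlapped.

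In the mir-51 family, miR-51-5p had 10416 and 7207 ppm in ALG-1 co-IPs against 32053 and 23631 ppm in ALG-2 co-IPs. It was higher with ALG-2, at -1.67 ± 0.20, while miR-52-5p and miR-53-5p were higher with ALG-1 by 0.79 and 1.16. The 95% intervals of the abundant miR-55-3p (-0.40 to 0.52) and miR-56-3p (-0.32 to 0.37) spanned 0. In the mir-58 family, miR-81-3p was higher with ALG-1 by 0.76 ± 0.13 and miR-82-3p had an interval of -0.30 to 0.19. In the mir-64 family only miR-66-5p passed, at -0.87 ± 0.11, and in the mir-72 family miR-72-5p passed at -0.65 ± 0.11 while the interval of miR-73-3p was -0.25 to 0.41. Both members of the mir-46 family, miR-46-3p and miR-47-3p, were higher with ALG-1, by 1.07 and 1.13. Over 18 alternative fits, miR-53-5p lost its call in 8, miR-81-3p in 6 and miR-72-5p in 4. The calls of miR-51-5p, miR-66-5p, miR-46-3p and miR-47-3p were lost in 1 each.

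**Figure D3:**
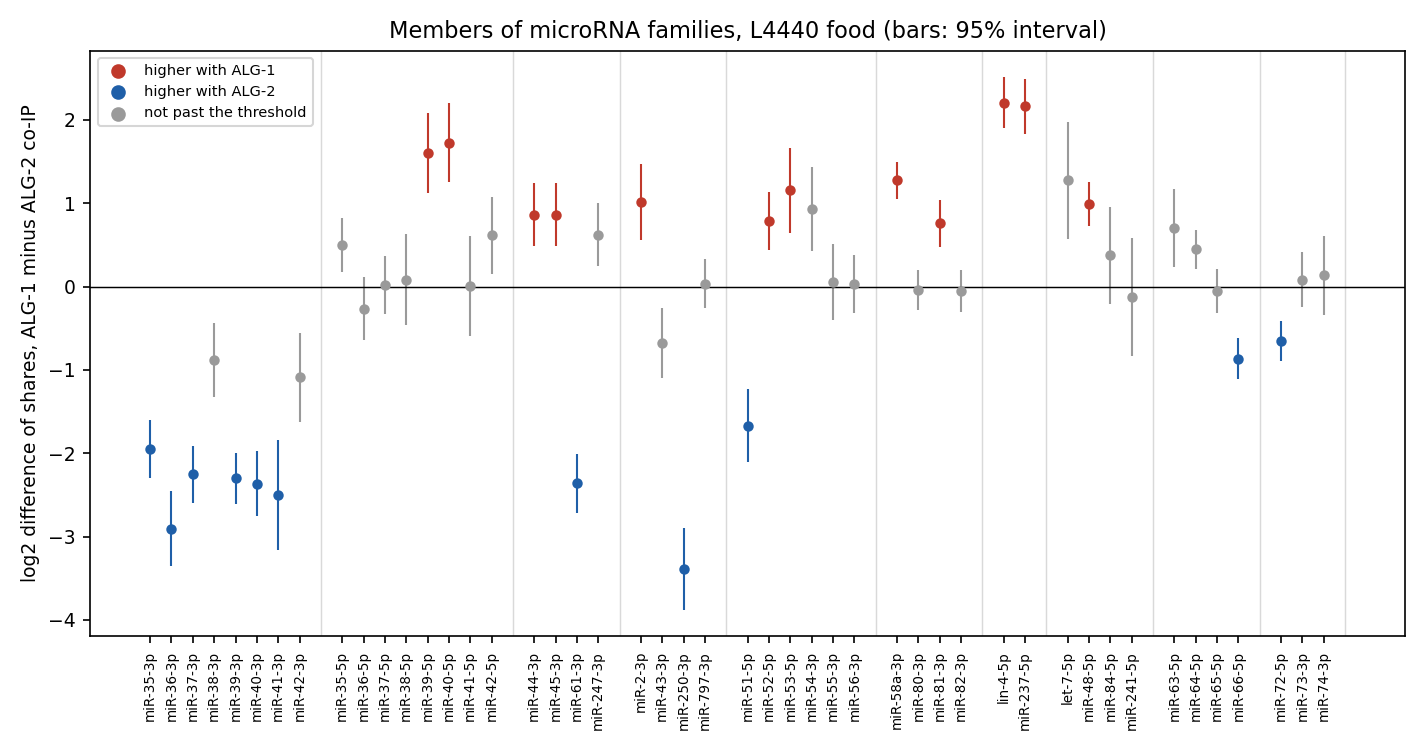
Log2 difference of shares, ALG-1 minus ALG-2 co-IP on L4440, for members of 9 families (the mir-35 family is drawn as 3p and then 5p arms); bars are 95% intervals. Red and blue points passed the threshold: miR-44-3p (0.86) and miR-61-3p (-2.36), or miR-2-3p (1.01) and miR-250-3p (-3.39), lie on opposite sides of 0.

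Outside these families, miR-243-3p had the largest difference of the 236 tested microRNAs. It had 139 and 122 ppm in ALG-1 co-IPs against 4.67 and 5.28 ppm in ALG-2 co-IPs, a difference of 4.46 ± 0.22 (adjusted p = 1.5e-05). The inputs were alike, with 90.4 and 106 ppm in the ALG-1 strain against 116 and 101 ppm in the ALG-2 strain. miR-243-3p is known in worms for being loaded into RDE-1 as well. miR-50-5p (1.67), miR-79-3p (1.68), miR-60-3p (1.29), miR-242 (1.24), miR-245-3p (1.08), miR-359 (1.05), miR-70-3p (0.92) and miR-90-3p (0.89) were also higher with ALG-1. Of these, miR-90-3p lost its call in 8 of 18 alternative fits, miR-359 and miR-60-3p in 7 each, miR-245-3p in 6, miR-50-5p in 5, miR-242 in 4 and miR-70-3p in 1. Higher with ALG-2 were miR-230-3p (-2.66), miR-1829a-3p (-2.42) and miR-246-3p (-1.44).

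**Figure D4:**
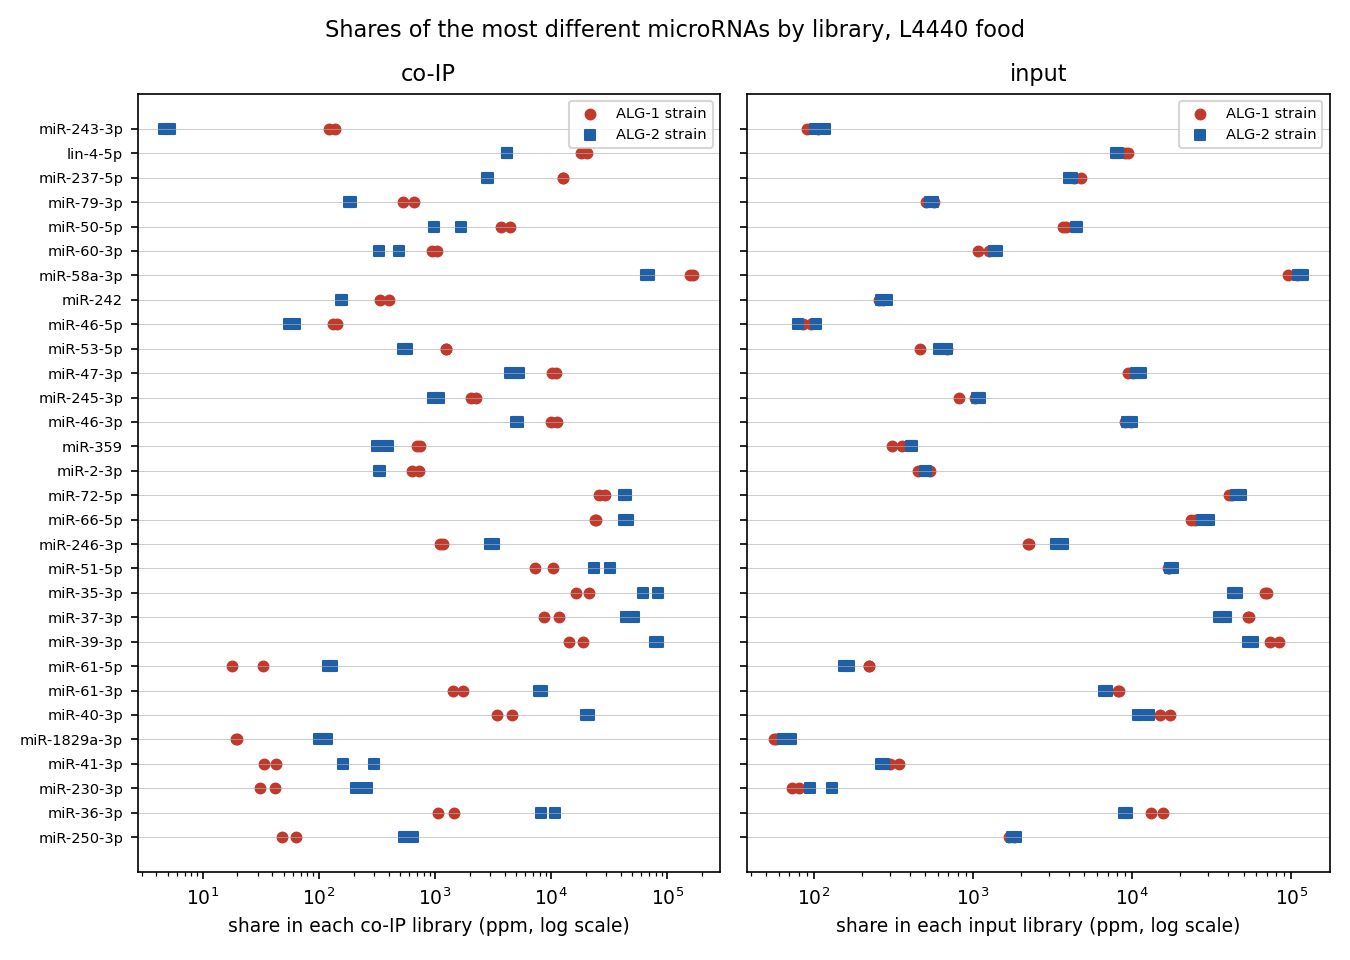
Share in ppm on a log scale in each co-IP library (left panel) and input library (right panel) for the 15 microRNAs most above and the 15 most below 0 in the co-IP comparison, from at least 100 ppm in one co-IP. The rows were chosen among those past the threshold whose ALG-1 circles and ALG-2 squares do not overlap in the co-IPs. The inputs were not held to that condition, and their overlap was not counted. The summed mir-35 family is 1.46-fold higher in the ALG-1 strain inputs.

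Lists of microRNAs assigned to tissues by name are given by their counts, beside the 46 of 236 tested microRNAs and 1.1% of all rows that were higher with ALG-1. Of the 8 rows of intestinal microRNAs (miR-60, miR-243, miR-244 and miR-788), 5 were higher with ALG-1 and none with ALG-2, with a summed share of 0.140 ± 0.00892% in ALG-1 co-IPs and 0.0565 ± 0.0123% in ALG-2 co-IPs (SD, n = 2 each). The list of the hypodermis and seam was let-7, miR-48, miR-84, miR-241, lin-4 and miR-237. Of its 11 tested rows, 3 were higher with ALG-1 and none with ALG-2, with 11.4 ± 0.287% in ALG-1 co-IPs and 4.88 ± 0.117% in ALG-2 co-IPs. These 3, lin-4-5p, miR-237-5p and miR-48-5p, were given above under their families and are no separate result. None of the 7 tested neuronal rows passed, nor either row of glial miR-228. Muscle miR-1-3p had 5713 and 3580 ppm in ALG-1 co-IPs against 5822 and 3532 ppm in ALG-2 co-IPs, with an interval of -0.65 to 0.64. Its rarer partner miR-1-5p was higher with ALG-2, at -2.18.

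Between the inputs of the strains, 10 of 236 microRNAs (4.24%) passed on L4440, 9 higher and 1 lower in the ALG-1 strain. Of all rows 3.11% did, 0.471% higher and 2.64% lower, so the share of microRNAs was near that of all rows. The largest of the 10 was miR-77-5p, at 1.42. Among the 10 were 7 of the 46 microRNAs higher with ALG-1 and 1 of the 31 higher with ALG-2. On RPM as deposited 27 were higher and 0 lower, and centred on the median microRNA 13 were higher and 20 lower. In the main limma fit 48 microRNAs had an unadjusted p under 0.05. Those below the threshold are not shown to be alike in both inputs.

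Enrichment, the co-IP share over the input share, was compared within each table, so that the scaling of tables does not enter. With ALG-1, 161 microRNA rows passed, 32 higher and 129 lower in co-IP than input. Of all rows 98.5% passed, 0.652% higher and 97.8% lower. With ALG-2, 153 passed, 11 higher and 142 lower. Of all rows 98.4% passed, 0.199% higher and 98.2% lower. These splits depend on the scaling: on RPM as deposited they were 104 higher and 80 lower with ALG-1, and with ALG-2 176 passed, 52 of them lower. Centred on the median microRNA they were 129 and 70 with ALG-1, and 142 and 54 with ALG-2.

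The difference between the 2 enrichments passed for 47 microRNA rows, 23 higher with ALG-1 and 24 higher with ALG-2, where 1.54% of all rows passed (1.09% and 0.453%). On RPM as deposited the split was 10 and 34, and centred on the median microRNA it was 58 and 41. Of the microRNAs called between the co-IPs, 22 of the 46 and 21 of the 31 passed here, which is no separate support because the same 4 co-IP libraries enter both comparisons. The log2 enrichment of miR-39-3p was -2.25 with ALG-1 and 0.55 with ALG-2, and it kept both signs on RPM as deposited (-1.15 and 2.07) and centred (-0.77 and 2.05). That of lin-4-5p was 1.07 with ALG-1 and -0.95 with ALG-2, but 2.17 and 0.57 on RPM as deposited and 2.55 and 0.55 centred, so its sign with ALG-2 turned with the scaling. In shares, 11 microRNAs were higher with ALG-1 and lower with ALG-2 relative to input and 10 the reverse, against 2 and 19 on RPM as deposited and 5 and 14 centred. Over all rows these counts were 12 and 10 of 5522 in shares, 4 and 19 of 3403 on RPM as deposited, and 8 and 14 of 5522 centred.

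The arm of a hairpin that was rarer in the inputs was less enriched than the abundant arm with both Argonautes. Among the 83 hairpins with both arms tested, the rarer arm lay below its partner in 68 with ALG-1 and 59 with ALG-2. Its median enrichment was -2.04 with ALG-1 and -1.72 with ALG-2, where those of the abundant arms were -0.10 and -0.36. On RPM as deposited the medians were -1.09 and -0.63 for the rarer arms and 0.97 and 1.13 for the abundant arms. Both arms passed the co-IP comparison for 14 hairpins, with mir-44 and mir-45 counted once for their equal 3p values, and for 12 of these both favoured the same Argonaute. The mir-250 and mir-61 genes, within 1000 bases of each other in the RefSeq WBcel235 annotation, had all 4 of their arms higher with ALG-2. In the 7-gene mir-35 to mir-41 cluster, 6 of 14 tested arms were higher with ALG-2 and 2 higher with ALG-1.

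The libraries from rde-1 RNAi animals, which share no sample with those from L4440, gave the same directions for the 77. There 64 microRNAs passed, 27.0% of those tested, 37 higher with ALG-1 and 27 higher with ALG-2. Of all rows 1.61% passed, 1.12% higher with ALG-1 and 0.488% with ALG-2. All 46 microRNAs higher with ALG-1 on L4440 and all 31 higher with ALG-2 kept their sign, and 27 and 24 of them passed again. Over all 234 microRNAs tested on both foods, 194 had the same sign, and of all rows 53.1% did. The mir-35 family held 5.09 and 6.58% in ALG-1 co-IPs against 22.6 and 24.5% in ALG-2 co-IPs. Across the 234 microRNAs tested on both foods the differences had a Pearson correlation of 0.93 and a Spearman correlation of 0.89, as a description across microRNAs that share strains, tags and tables.

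Among those that did not pass on rde-1 RNAi was miR-58a-3p, with 0.63, where its ALG-1 co-IPs held 117114 ppm in one library and 215381 ppm in the other. The ALG-1 co-IP replicates on this food overlapped by 84.04%, less than the 91.6% of the ALG-2 replicates. Tested directly, in a comparison added after the data had been seen, the Argonaute difference on rde-1 RNAi minus that on L4440 passed for 0 microRNAs with limma, where 0.036% of all rows passed, and 23 had an unadjusted p under 0.05. The difference of enrichments passed for 34 microRNAs on rde-1 RNAi, 17 each way, where 1.21% of all rows did (0.868% and 0.343%). On RPM as deposited the split was 15 and 28, and centred on the median microRNA 19 and 34.

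**Figure D5:**
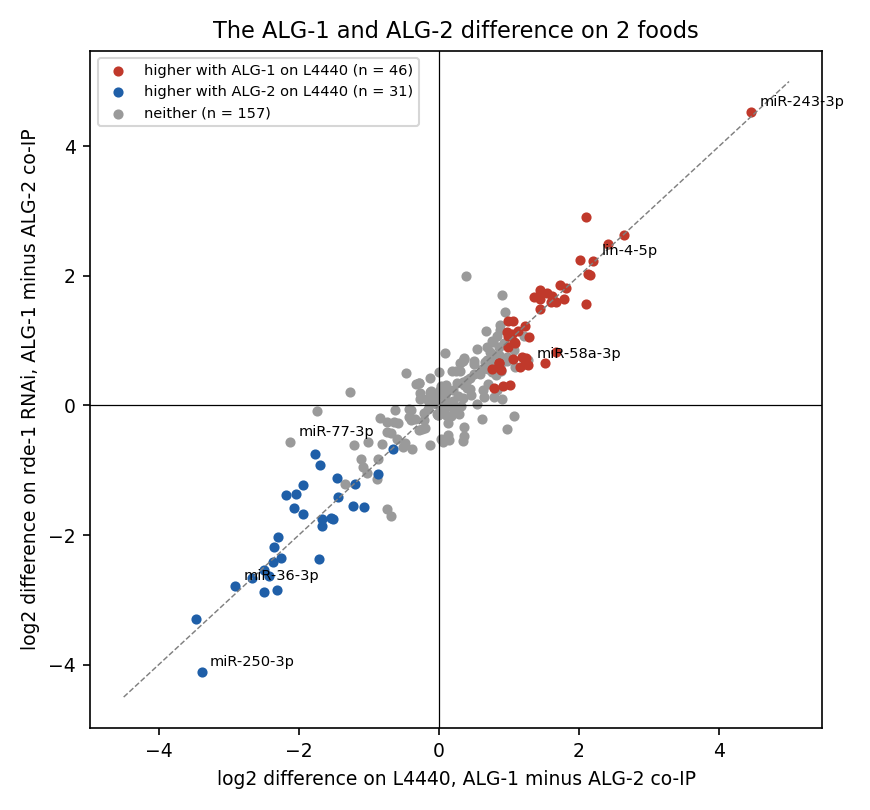
Log2 difference of shares, ALG-1 minus ALG-2 co-IP, on rde-1 RNAi (vertical) against L4440 (horizontal), 1 point per microRNA tested on both foods, with the line of equal differences dashed. All 46 red and 31 blue points keep the sign they had on L4440.

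ALG-1 co-IPs from nrfl-1 RNAi food are set beside these without a test, since their table has no ALG-2 libraries and its headers name another tag than the labels do. The mir-35 family held 6.42 ± 1.18% of microRNA RPM after co-IP and 17.9 ± 1.62% of input (SD, n = 3 each). miR-250-3p had 50.97, 54.13 and 65.17 ppm in the co-IPs against 2799, 2570 and 2333 ppm in the inputs. Both were thus low in ALG-1 co-IPs here too. The lin-4 family, in contrast, held 0.702 ± 0.0923% after co-IP and 0.652 ± 0.0309% before. Both were below its shares on L4440, which were 3.20 ± 0.152% in the ALG-1 co-IPs and 1.37 ± 0.0680% in the inputs (n = 2 each).

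Both cargoes held microRNAs that were higher in embryos and others that were higher in adults. Of 251 tested microRNAs, 207 passed between wild type embryos and adults, 119 higher and 88 lower in embryos. Of all rows 80.4% passed, 5.03% higher and 75.4% lower. Of the 46 higher with ALG-1, 20 were higher and 19 lower in embryos, and of the 31 higher with ALG-2, 14 were higher and 13 lower. The medians, embryos minus adults, were 0.02 and 0.08. lin-4-5p had 3.85 and 2.58 ppm in embryos against 28282, 29850 and 27422 ppm in adults. The ALG-2 cargo held adult microRNAs as well: miR-246-3p had 7.94 and 8.07 ppm in embryos against 2750, 3136 and 2563 ppm in adults.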

How the data were processed

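Small RNA libraries were counted per feature with tinyRNA and custom scripts, per the series' design text, and the authors deposited the values as RPM (reads per 1000000). The aligner, build and RPM denominator are not given in the sources used here. Low piRNA values were whole multiples of 1 read (within 0.1 read) for at least 94.9% of values in both tables, but many low microRNA values were fractions of a read, so no count test was run. Each value was divided by the summed microRNA RPM of its library, as ppm. Rows in both tables with a mean of at least 1 ppm were fitted as log2(ppm + 1) in limma 3.58.1 (R 4.3.3), with empirical Bayes and a mean-variance trend, over 4 groups of 2 libraries per food. Benjamini-Hochberg adjustment ran over all rows fitted, at 0.05, and folds are on that scale, which understates changes of low rows. The fit was tested on simulated data, where it called no unchanged row and missed many of the smaller changes, so a microRNA below the threshold is not shown to be alike in both. Named microRNAs were the 15 largest differences each way, the 10 largest enrichment differences each way, the 10 most abundant per co-IP, and listed families. Both sets of differences were taken only from rows past the threshold, from 100 ppm, with no overlap of the L4440 co-IP libraries. Others were chosen after their values were seen. Members and lists were chosen with earlier results of these data known. Alternatives were other pseudocounts, filters and scalings, microRNA rows alone, rows with equal values counted once, a replicate block and each library left out. Counting equal rows once moved 6 sums of the listed families and tissue lists by more than 1 SD of the replicates.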

Additional observations from a re-analysis of the deposited data

Results flagged for a closer look

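The 20 microRNAs given here were chosen because their enrichment of co-IP over input on L4440 differed between the Argonautes. The test was of the difference itself, in limma with Benjamini-Hochberg adjustment over all rows, and the 10 largest each way were kept. That all 20 passed and split evenly follows from this choice. The L4440 co-IP libraries of the main comparison enter here too, so this is no separate support. Each value is the log2 enrichment with ALG-1 minus that with ALG-2. Of the 20, 10 were higher with ALG-1. miR-243-3p was highest at 4.61 (adjusted p = 0.00022), followed by lin-4-5p at 2.02 and miR-237-5p at 2.02. miR-50-5p stood at 1.92, miR-79-3p at 1.72 and miR-58a-3p at 1.44. miR-47-3p stood at 1.29, miR-70-3p at 1.11, miR-46-3p at 1.10 and miR-48-5p at 0.95. Over 17 alternative fits, miR-50-5p and miR-48-5p lost this call in 7 each, miR-79-3p and miR-46-3p in 6 each, miR-47-3p in 5, miR-70-3p in 3 and miR-58a-3p in 1.

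The other 10 were higher with ALG-2. miR-36-3p was lowest at -3.56, followed by miR-250-3p at -3.34. The mir-35 family members miR-40-3p, miR-39-3p and miR-37-3p stood at -2.81, -2.80 and -2.80, with miR-41-3p at -2.75 and miR-35-3p at -2.59. miR-61-5p stood at -2.77, miR-61-3p at -2.63 and miR-1829a-3p at -2.17. The call was lost in 4 of the 17 for miR-41-3p and for miR-61-5p, in 3 for miR-1829a-3p and in 1 for miR-35-3p.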

How the results depend on the processing

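Of the microRNAs named by rule, 35 passed in the main fit or in an alternative. These 35 kept their sign under all alternatives, 18 for the co-IP difference. Named microRNAs that passed in no fit, such as miR-80-3p, were left out of this check, so it does not cover differences near 0. Of the microRNAs below the threshold, 17 changed sign in the co-IPs on centring, among them miR-55-3p, miR-56-3p and miR-73-3p; none of the 77 above it did. The co-IP call was lost most often for miR-2-3p (9 of 18), miR-53-5p and miR-90-3p (8 each), miR-60-3p and miR-359 (7 each); it held in all 18 for lin-4-5p, miR-237-5p, miR-243-3p, miR-250-3p and miR-61-3p. Counts of microRNAs past the threshold moved by over 1.5 times as follows, and the cause was not tested. For the co-IP difference on L4440 (77), no filter gave 39, centring 119 and microRNA rows alone 149. For the difference of enrichments on L4440 (47), a pseudocount of 0.1 gave 31, no filter 15, a filter of 10 ppm 73, centring 99 and microRNA rows alone 118. For inputs (10), pseudocounts of 0.1 and 10 gave 0 and 31, no filter 5, RPM as deposited 27, centring 33 and microRNA rows alone 18. On rde-1 RNAi the co-IP difference (64) gave 36 without the filter and 101 on microRNA rows alone, and the difference of enrichments (34) gave 14, 72, and 53 on centring. A filter of 10 ppm gave 102 and 99 for ALG-1 and ALG-2 enrichment. The replicate numbers are the same in every ALG-1 and ALG-2 group of these foods. On L4440 the deviations of libraries with the same number correlated by at most 0.31 between groups. With the replicate block the co-IP counts were 81 and 65, and the rde-1 RNAi difference of enrichments 92.

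Leaving out 1 library in turn gave 53 to 88 for the co-IP difference on L4440, 14 to 61 for its difference of enrichments, 0 to 12 for inputs, 29 to 71 and 12 to 49 for the same differences on rde-1 RNAi, 136 to 164 and 128 to 157 for ALG-1 and ALG-2 enrichment, and 184 to 206 for embryos against adults. The difference of enrichments fell to 14 without ALG-1 input 1, 18 without ALG-2 input 1 and 14 without ALG-2 input 2. On rde-1 RNAi the co-IP difference gave 39 and 40 without either ALG-1 input and 29 without either ALG-2 input, and the difference of enrichments 12 and 14 without ALG-2 input 1 and 2. With 2 libraries a group, small differences can miss the threshold.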
